A study of Homo sapiens with 6 samples.

Results

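Messenger RNA signals are described here for 10 antioxidant enzyme genes: the superoxide dismutases SOD1, SOD2 and SOD3, the peroxide-removing enzymes CAT, GPX2 and GPX4, and the NRF2 target enzymes NQO1, HMOX1, GCLM and TXNRD1. The genes were picked by name from the 43317 gene names on the array. SOD3 was chosen for its ratios on these same arrays, which were high under miR-421 and near 0 under miR-338-5p, and the other 9 genes were set beside it as related enzymes. The values of SOD3 are therefore given as a description with no test, and tests are given for the other 9 genes. Each gene had 1 probe on the array. All 10 probes passed the filter on dim probes (a signal well above background, in at least 1 dye, on 3 or more of the 6 arrays).

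All cells derived from 22RV1, an established prostate cancer line of human origin that the labels describe as SPINK1 positive. Stable cells carried the lentiviral vector pLemiR-338-5p, pLemiR-421 or, as control, pLemiR-RFP, which encodes a red fluorescent protein, and all were kept in medium with puromycin. On each of 6 Agilent 2-colour arrays, the Cy3 dye marked control RNA and the Cy5 dye marked RNA of a miRNA line, with no dye swap. There were 3 arrays for the miR-338-5p line (replicates 1, 2 and 3) and 3 for the miR-421 line (a sample labelled as a pool, and replicates 1 and 2). The labels do not say what was pooled, what the letter C before each replicate number means, or whether samples came from separate cultures. The SDs and p-values thus measure the spread between these samples, which may be technical. The comparisons ask which messenger RNAs differ from control in cells that overexpress either miRNA.

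Superoxide dismutases turn superoxide into hydrogen peroxide. SOD1 works in the cytosol with copper and zinc, SOD2 in mitochondria with manganese, and SOD3 is a secreted copper and zinc enzyme. Catalase and glutathione peroxidases then remove hydrogen peroxide and lipid peroxides, and the transcription factor NRF2, which KEAP1 and CUL3 direct to degradation, turns on many of the enzymes that supply glutathione and reduced thioredoxin.

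The mature sequences of both miRNAs are shown because each line was made to carry one of them, and a miRNA finds its target messenger RNAs mainly through its seed. The sequences are from RefSeq (GRCh38.p14), with the seed (bases 2 to 8 from the 5′ end) in capitals. hsa-miR-338-5p lies at chr17:81125923-81125944 and hsa-miR-421 at chrX:74218392-74218414, both on the minus strand.
hsa-miR-338-5p: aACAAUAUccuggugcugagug
hsa-miR-421: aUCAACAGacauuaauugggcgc
The seeds were identical at 4 of 7 positions, so the lines carry miRNAs of different seed families. Target sites in the transcripts of the 10 genes were not analysed here.

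Gene spots well above background made up 47.3% to 47.9% in Cy3 and 46.8% to 48.3% in Cy5 on the miR-338-5p arrays. On the miR-421 arrays they made up 44.3% to 44.4% in Cy3 and 41.9% to 47.8% in Cy5, with the lowest share on miR-421 replicate 1. The luminal prostate markers KLK3, KLK2, HOXB13, KRT8, KRT18 and TMPRSS2 were well above background in Cy3 on all 6 arrays. Precision is limited throughout by having 3 arrays per line.

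SOD3 (NM_003102; probe at chromosome 4, 24802400 to 24802459, hg19) had a Cy5 signal several times that of control in the miR-421 line and close to control in the miR-338-5p line. Its log2 ratio of Cy5 over Cy3 under miR-421 was 2.09 in the pool, and 2.54 and 2.42 in replicates 1 and 2. Under miR-338-5p it was 0.22, -0.017 and 0.029 in replicates 1, 2 and 3. The lowest miR-421 array thus lay far above the highest miR-338-5p array, and the groups did not overlap. On the linear scale the miR-421 line had 4.27, 5.80 and 5.35 times the control signal on those arrays. The means were 2.35 ± 0.23 (SD, n = 3) under miR-421 and 0.078 ± 0.13 (SD, n = 3) under miR-338-5p, a gap of 2.27 on the log2 scale. These values chose the gene and were not tested. In RNA from a whole culture, fewer cells that express a gene and less RNA per cell cannot be told apart, and the same holds for every gene below.

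The control channel of SOD3 was not the same on all arrays. Its normalized log2 intensity in Cy3 was 7.54, 7.51 and 7.59 on the miR-338-5p arrays. On the miR-421 arrays it was 8.61, 8.66 and 8.46 in the pool and in replicates 1 and 2. The control RNA set against miR-421 thus gave the brighter SOD3 spot on each array, by 1.03 on average, and 0.263% of tested probes had a Cy3 gap at least as large. The Cy5 log2 intensity was 7.76, 7.49 and 7.62 for the miR-338-5p line, and 10.70, 11.20 and 10.88 for the miR-421 line. The Cy5 gap between the lines was therefore 3.30, larger than the gap in ratios of 2.27, since each ratio was taken against its own array's Cy3. Whether the same control culture or extract supplied Cy3 on all 6 arrays is not given in the sources used here, so the gap in ratios may be taken against different control RNA. Before any normalization, the SOD3 spot stood 152 to 173 units above its local background in Cy3 on the miR-338-5p arrays and 298 to 350 units on the miR-421 arrays. In Cy5 it stood 115 to 166 and 1497 to 1928 units above background. Both dyes were well above background on all 6 arrays.

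**Figure D1:**
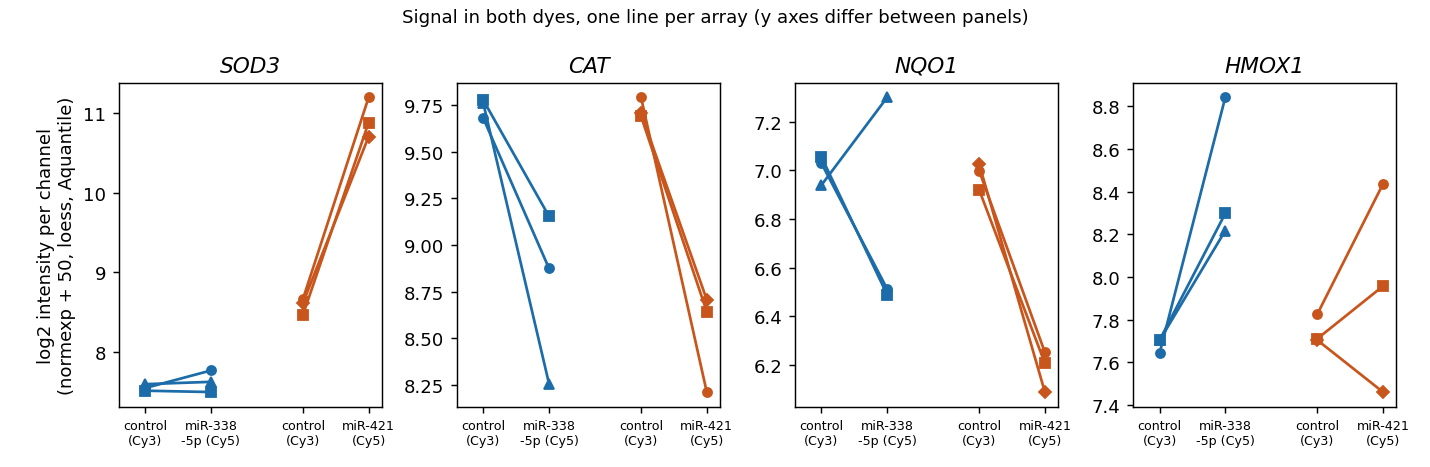
Normalized log2 intensity of SOD3, CAT, NQO1 and HMOX1 in Cy3 (control) and Cy5 (miRNA line), with 1 line joining both dyes of each array; blue arrays are miR-338-5p and orange arrays miR-421, and marker shapes are the replicates. The Cy3 points of SOD3 sit near 7.5 on the blue arrays and between 8.46 and 8.66 on the orange ones, while the Cy3 points of CAT lie between 9.68 and 9.79 on all 6 arrays.

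Other genes with a large Cy5 gap were read for a Cy3 gap in the same way. Of 21590 genes, 21 had a Cy5 level at least 2 log2 units higher in the miR-421 line than in the miR-338-5p line. Cy3 was also higher on the miR-421 arrays in 15 of these 21, SOD3 included, with a median Cy3 gap of 0.069 against -0.0099 over all genes. Both levels of a spot were computed from the same mean intensity, so these gaps are not independent of each other. The share of all genes with a higher Cy3 was not counted, so the 15 of 21 are a description. The Cy3 gap was at least 0.5 in 4 of the 21, which 1.79% of all genes showed. Among the other members, the Cy3 mean of the miR-421 arrays lay between 0.24 below and 0.16 above that of the miR-338-5p arrays, from SOD1 (-0.24) to GCLM (0.16).

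SOD3 is a gene of connective tissue and vessel walls as well as of epithelia, so markers of other cell types were read beside it. Of the 5 fibroblast markers, COL1A2 and COL3A1 stayed below that mark in both dyes on each of the 6 arrays. The others were LUM, DCN and COL1A1. LUM, a collagen-binding proteoglycan, had log2 ratios of 2.95, 1.53 and 1.94 in the miR-421 pool and replicates 1 and 2, and 1.88, 1.80 and -0.77 in miR-338-5p replicates 1, 2 and 3. DCN, a related proteoglycan, had 1.90, 0.19 and 1.30, and 0.24, 0.60 and -1.02, on the same arrays. The summed Cy5 signal above background of the 5 markers was 226 to 1299 units on the miR-421 arrays and 32.9 to 443 units on the miR-338-5p arrays. In Cy3 the sums were 132 to 160 and 155 to 192 units. Of 4 endothelial markers, PECAM1 and TEK were not well above background on any array, while VWF and CDH5 were so in both dyes on all 6. The mean ratios of VWF and CDH5 were 0.080 and 0.028 under miR-421 and 0.036 and -0.12 under miR-338-5p. Of the leukocyte markers, PTPRC, CD3E and CD14 were measured and CD68 was not. The summed Cy5 signals were 69.3 to 80.1 units on the miR-421 arrays and 55.4 to 64.9 units on the miR-338-5p arrays. The Cy3 sums were 76.5 to 88.7 and 76.0 to 86.2 units. Mean ratios of PTPRC, CD3E and CD14 were 0.15, 0.028 and -0.16 under miR-421, and 0.017, 0.023 and -0.056 under miR-338-5p. LUM and DCN thus had higher means under miR-421 (2.14 and 1.13) than under miR-338-5p (0.97 and -0.058), as SOD3 did, and for both the single arrays of the lines overlapped. COL1A1, well above background in both dyes on all 6 arrays, did not, with means of 0.059 under miR-421 and 0.11 under miR-338-5p. The part of these markers in the SOD3 value was not tested.

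By its miR-421 mean, SOD3 ranked 8 of 21697 genes, a description drawn from the ratios for which it was chosen. A log2 mean of at least 2 under miR-421 was found in 21 genes, and 11 of them had a miR-338-5p mean within 0.5 of 0. The 5 genes whose 6 log2 ratios lay nearest those of SOD3, by root mean square difference among 15683 genes with a symbol, were RASD1, PTPN18, PNPLA7, LASP1 and ABCC11. Their means lie near those of SOD3 because they were selected that way. RASD1, a Ras-like GTPase induced by glucocorticoids, was nearest (0.34), with means of 2.40 ± 0.13 under miR-421 and 0.46 ± 0.43 under miR-338-5p (SD, n = 3 each). PTPN18, a tyrosine phosphatase, had 1.90 and 0.26 (distance 0.37), and PNPLA7, a lysophospholipase, had 2.12 and 0.41 (0.42). LASP1, an actin-binding adaptor, had 2.14 and -0.37 (0.43), and ABCC11, an efflux transporter, had 1.81 and 0.046 (0.43). In Cy3 these genes differed between the array groups by -0.030 to 0.32, less than the 1.03 of SOD3. In all, 111 genes lay within a distance of 1.

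The genes around SOD3 were also read. SOD3 was chosen for its high miR-421 ratio, so lower values in its neighbours largely follow from that choice. Within 1 Mb on hg19, 13 probes of 9 other genes were tested, and their means under miR-421 ran from -0.93 to 0.65. The nearest gene, CCDC149, had log2 ratios of 0.39 ± 0.16 under miR-421 and 0.61 ± 0.45 under miR-338-5p at its brightest probe, 7.4 kb away (SD, n = 3; limma adjusted p 0.14 and 0.072). Its other tested probes had means of 0.15, 0.012 and 0.056 under miR-421, and 0.034, -0.017 and 0.073 under miR-338-5p. SEPSECS, the enzyme that makes selenocysteine on its transfer RNA, lay 324.9 kb away at -0.084 and 0.050. On the other side, at negative distances, lay DHX15, an RNA helicase, at -271.1 kb (-0.85 and -0.68). The long noncoding lnc-DHX15-1 lay at -328.6 kb (0.65 and 0.074), and neither gene was past the threshold. A dimmer probe of lnc-DHX15-1 had means of 0.0069 and -0.050. Under miR-421 none of the 13 probes (0) was higher past the threshold and 3 were lower (a background of 9.19% higher and 12.5% lower over all tested probes). These 3, named after their values were seen, were PI4K2B (-0.58), ZCCHC4 (-0.37) and ANAPC4 (-0.93). Under miR-338-5p 0 of the 13 passed limma's adjusted p of 0.05, against 3.79% higher and 5.22% lower over all tested probes. An unadjusted p under 0.05 in limma's test was found for 3 of the 13, and for 6012 of 21697 genes read by 1 probe each.

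**Figure D2:**
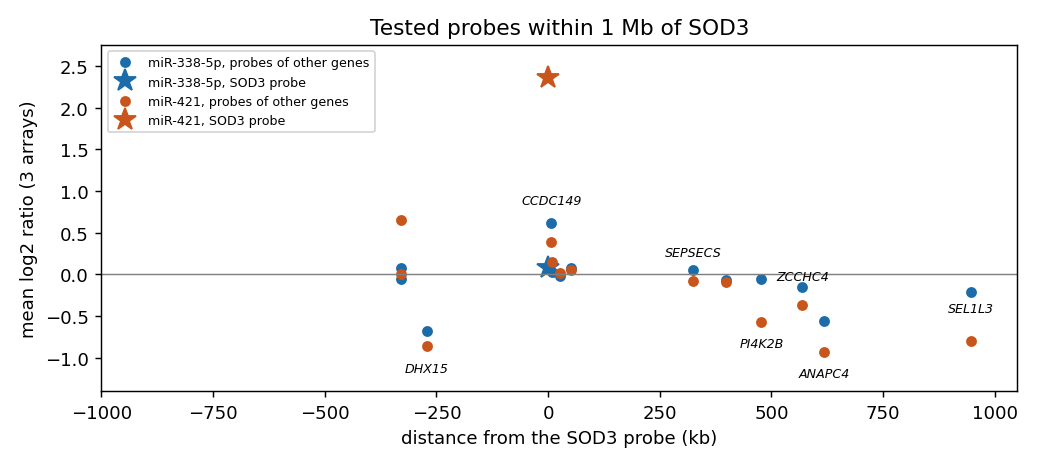
Mean log2 ratio over control (3 arrays) of each tested probe within 1 Mb of the SOD3 probe against its distance in kb, for miR-338-5p (blue) and miR-421 (orange), with SOD3 as a star. The orange star lies at 2.35, a value for which SOD3 was chosen, and the other orange points lie between -0.93 and 0.65.

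The 250 bases before the SOD3 start are shown because SOD3 was high in the miR-421 line (RefSeq, GRCh38.p14, chr4:24795323-24795572, plus strand, 5′ to 3′). The capitals mark a CCAAT motif at -74 from the start.
SOD3: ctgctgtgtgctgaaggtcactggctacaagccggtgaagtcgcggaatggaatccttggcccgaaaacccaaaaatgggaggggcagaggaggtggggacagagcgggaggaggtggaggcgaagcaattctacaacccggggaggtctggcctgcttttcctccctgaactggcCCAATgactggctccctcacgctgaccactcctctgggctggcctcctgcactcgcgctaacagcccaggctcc
The window had 61.6% G and C and 10 CpG dinucleotides, against medians of 58% and 11 over 35093 promoters of the table. The motif CCAAT, searched on both strands from 250 bases before to 50 after the start, was in 34.6% of these promoters. The core of the antioxidant response element through which NRF2 acts, TGACNNNGC, searched the same way, was in 13.4% of them and not in the SOD3 window. The table held 8 of the 10 genes, and SOD1 and HMOX1 were not among them.

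Among the 9 genes other than SOD3, CAT was lower in both lines, NQO1 and GCLM were lower and GPX4 was higher under miR-421, and the rest did not pass the test. In the miR-338-5p line, 0 were higher and 1 was lower past the threshold of limma's adjusted p of 0.05. An unadjusted p under 0.05 in limma's test was found for 3 of the 9, and for 6012 of all 21697 genes. In the miR-421 line, 1 was higher and 3 were lower. The counts past the threshold are read against backgrounds of 3.79% higher and 5.22% lower of all probes tested under miR-338-5p, and 9.19% higher and 12.5% lower under miR-421. The median log2 ratio of the 9 genes was -0.16 in the miR-338-5p line and -0.072 in the miR-421 line, against -0.0027 and 0.0015 over all tested probes. Control RNA was the reference channel in both comparisons, and it may be shared between them, so they are given side by side. For the difference between the lines, 0 of the 9 passed limma's adjusted p of 0.05, where 0.0473% of all probes passed. An unadjusted p under 0.05 in limma's test was found for 1 of the 9 (GPX4), and for 3101 of all 21697 genes. The ratios of the 2 groups did not overlap for 2 of the 9 (GPX4 and NQO1), against 19.8% of all tested probes.

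**Figure D3:**
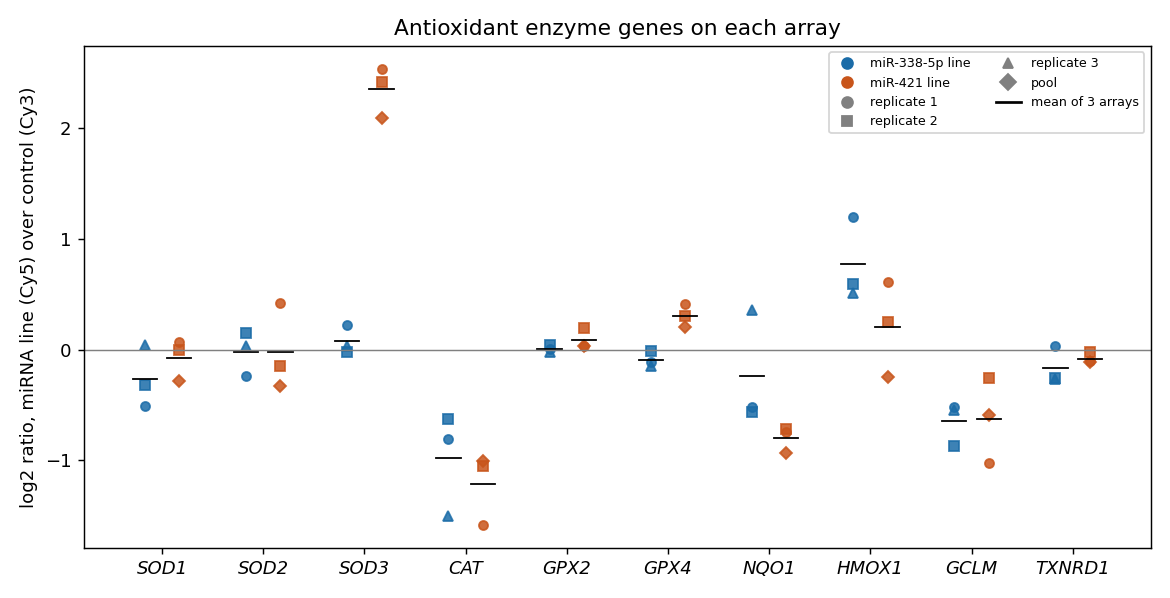
Log2 ratio of the miRNA line (Cy5) over control (Cy3) on each of the 6 arrays for the 10 genes, miR-338-5p in blue and miR-421 in orange, with marker shapes for replicates and the pool and a black bar for the mean of 3 arrays. SOD3 under miR-421 lies between 2.09 and 2.54, CAT lies below 0 on all 6 arrays, and the other genes lie within 1.20 of 0.

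The other superoxide dismutases did not pass the test in either line. SOD1 (NM_000454; chromosome 21, 33040890 to 33040949) had log2 ratios of -0.51, -0.32 and 0.046 in miR-338-5p replicates 1, 2 and 3. In the miR-421 pool and replicates 1 and 2 it had -0.28, 0.067 and 0.00. Both groups spanned 0 and overlapped, with means of -0.26 ± 0.28 and -0.072 ± 0.19 (SD, n = 3; limma adjusted p 0.23 and 0.72). The 95% intervals were -0.56 to 0.035 and -0.37 to 0.22, so neither includes a change of the size seen for SOD3. SOD2 (NM_001024465; chromosome 6, 160103590 to 160103649) had -0.24, 0.15 and 0.037 on the miR-338-5p arrays, and -0.33, 0.42 and -0.15 on the miR-421 arrays. The arrays fell on both sides of 0 in either line, and the groups overlapped. Its means were -0.017 ± 0.20 and -0.018 ± 0.39 (SD, n = 3; limma adjusted p 0.96 and 0.95), with intervals of -0.39 to 0.36 in both.

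CAT, which encodes catalase (NM_001752; chromosome 11, 34493034 to 34493093), was lower than control on all 6 arrays. Its log2 ratio was -0.81, -0.62 and -1.50 in miR-338-5p replicates 1, 2 and 3. In the miR-421 pool and replicates 1 and 2 it was -1.0, -1.58 and -1.05. The lines overlapped, and each had 1 array near -1.5. CAT fell by 0.98 ± 0.47 under miR-338-5p (SD, n = 3; limma adjusted p 0.037) and fell by 1.21 ± 0.32 in the miR-421 line (SD, n = 3; limma adjusted p 0.013), to 50.8% and 43.2% of control. The difference between the lines, 0.23 with a 95% interval of -0.44 to 0.90, did not pass (limma adjusted p 0.76). The probe was printed as 10 spots on every array, and the SD over its 8 to 10 usable spots was 0.033 to 0.090. The spread over spots was thus much smaller than the spread over arrays. The Cy3 level of CAT was steady, between 9.68 and 9.79 over the 6 arrays. With no dye swap, a dye bias of this probe and a lower level in both lines cannot be told apart.

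The miR-421 call of CAT held in 16 of 17 alternatives and was lost without miR-421 replicate 2 (-1.29, limma adjusted p 0.0667, range 0.00363 to 0.0667). The miR-338-5p call was lost in 11 of 17, over which its mean stayed between -1.18 and -0.71. Those included leaving out any miR-338-5p array (limma adjusted p 0.0965, 0.07 and 0.0994 without replicates 1, 2 and 3) and leaving out replicate 2 of miR-421 (0.0747) or its pool (0.0667).

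The CAT promoter is shown because this gene was below control in both lines (RefSeq, GRCh38.p14, chr11:34438684-34438933, plus strand). The capitals mark 5 CCAAT motifs, 2 of them read on the opposite strand as ATTGG.
CAT: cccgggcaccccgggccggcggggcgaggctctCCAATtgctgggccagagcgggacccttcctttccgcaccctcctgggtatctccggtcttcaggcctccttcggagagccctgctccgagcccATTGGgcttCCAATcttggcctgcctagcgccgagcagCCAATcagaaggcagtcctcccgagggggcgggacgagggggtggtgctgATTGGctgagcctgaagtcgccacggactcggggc
The window held 18 CpG dinucleotides and no antioxidant response element core.

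GPX4, the enzyme that reduces lipid peroxides in membranes, was slightly above control in the miR-421 line. Its log2 ratio (NM_001039848; chromosome 19, 1105673 to 1105732) was 0.20, 0.41 and 0.30 in the miR-421 pool and replicates 1 and 2. In miR-338-5p replicates 1, 2 and 3 it was -0.12, -0.0092 and -0.14. All miR-421 arrays were above 0 and all miR-338-5p arrays below. GPX4 rose by 0.30 ± 0.10 under miR-421 (SD, n = 3; limma adjusted p 0.023), or to 123% of control, and was at -0.089 ± 0.071 under miR-338-5p (limma adjusted p 0.42). The difference of -0.39 (95% interval -0.61 to -0.18) did not pass (limma adjusted p 0.17). The Cy3 mean of GPX4 was 13.16 on the miR-338-5p arrays and 12.93 on the miR-421 arrays, and the Cy5 means were 13.07 and 13.23. Both dyes thus contributed to the gap, and the control channel more. The miR-421 arrays differed from the miR-338-5p arrays by -0.23 in Cy3 and 0.16 in Cy5. A Cy3 gap at least as large in size was found in 3.43% of tested probes. The miR-421 call was lost in 8 of 17 alternatives, among them the image software's ratio (0.25, limma adjusted p 0.254) and leaving out miR-421 replicate 1 (0.25, 0.0781) or replicate 2 (0.31, 0.106).

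GPX2, a glutathione peroxidase of the gut epithelium and other epithelia, was barely measurable. Its spot (NM_002083; chromosome 14, 65406396 to 65406455) stood 8.09 to 23.2 units above background in Cy3 and 12.2 to 24.7 units in Cy5, and Cy3 was well above background on 5 of 6 arrays. Its log2 ratios were 0.0049, 0.039 and -0.024 on the miR-338-5p arrays and 0.030, 0.032 and 0.19 on the miR-421 arrays. At this brightness the offset of 50 units added before the logarithm holds ratios near 0, and over the alternatives the miR-421 mean ran from 0.031 to 0.48. Neither mean passed (limma adjusted p 0.96 and 0.32).

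NQO1, a quinone reductase that is among the best known NRF2 targets, was lower in the miR-421 line. Its log2 ratio (NM_000903; chromosome 16, 69744274 to 69744333) was -0.94, -0.75 and -0.71 in the miR-421 pool and replicates 1 and 2. In miR-338-5p replicates 1, 2 and 3 it was -0.52, -0.57 and 0.36. The 3 miR-421 ratios lay close together, but their Cy5 spots stood 16.6, 9.11 and 22.6 units above background. Those values are below the offset of 50 units added before the logarithm, which shrinks ratios of dim spots. The closeness is thus not read as agreement between samples, and the SD and p for miR-421 below rest on these shrunken ratios. In the other line, miR-338-5p replicate 3 stood on the other side of 0 from replicates 1 and 2. NQO1 fell by 0.80 ± 0.12 under miR-421 (SD, n = 3; limma adjusted p 0.032) and was at -0.24 ± 0.52 under miR-338-5p (limma adjusted p 0.47). The difference of 0.56 (95% interval -0.075 to 1.19) did not pass (limma adjusted p 0.41).

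The size of the NQO1 fall depended on how background was handled. Its spot was dim and stood 66.8 to 94.6 units above background in Cy3 and 9.11 to 22.6 units in Cy5 of the miR-421 line. With plain subtraction the miR-421 mean was -2.04 (limma adjusted p 0.0098), and in the image software's ratio it was -2.29 (limma adjusted p 0.012). The call was lost without the miR-421 pool, replicate 1 or replicate 2 (limma adjusted p 0.114, 0.091 and 0.116) and with no filter (0.0655). In miR-338-5p replicate 3 the Cy5 spot stood at 94.4 units, against 36.4 and 31.5 units in replicates 1 and 2.

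HMOX1, the inducible heme oxygenase (NM_002133; chromosome 22, 35790122 to 35790181), had log2 ratios above 0 on all miR-338-5p arrays. They were 1.20, 0.59 and 0.52 in replicates 1, 2 and 3. Under miR-421 they were -0.24, 0.61 and 0.25 in the pool and replicates 1 and 2. The groups overlapped through miR-421 replicate 1. The means were 0.77 ± 0.37 (SD, n = 3; limma adjusted p 0.064) and 0.20 ± 0.43 (SD, n = 3; limma adjusted p 0.49), neither past the threshold. Under miR-338-5p it passed in 3 of 17 alternatives, over which limma's adjusted p ran from 0.0297 to 0.198. This probe was also printed as 10 spots, with an SD over spots of 0.034 to 0.069, so spot noise was small beside the spread between arrays.

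GCLM, the modifier subunit of the enzyme that limits glutathione synthesis (NM_002061; chromosome 1, 94352810 to 94352869), was below control on all 6 arrays. Its log2 ratio was -0.52, -0.87 and -0.54 in miR-338-5p replicates 1, 2 and 3. In the miR-421 pool and replicates 1 and 2 it was -0.59, -1.02 and -0.26. The lines overlapped fully. GCLM fell by 0.62 ± 0.38 under miR-421 (SD, n = 3; limma adjusted p 0.036), to 64.9% of control. The miR-338-5p mean was -0.64 ± 0.20 (SD, n = 3; limma adjusted p 0.052), on the other side of the threshold at nearly the same size. The difference between the lines was -0.020 (95% interval -0.54 to 0.50; limma adjusted p 0.98). The miR-421 call was lost in 11 of 17 alternatives (limma adjusted p 0.0268 to 0.118), among them leaving out miR-338-5p replicate 1 or 3 or any miR-421 array. Without miR-421 replicate 1 the mean was -0.42 and without replicate 2 it was -0.81.

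The GCLM promoter is shown because it carries the antioxidant response element core and the gene was below control in both lines (RefSeq, GRCh38.p14, chr1:93909431-93909680, minus strand). The capitals mark the core, which here lies on the opposite strand, at -34 from the start.
GCLM: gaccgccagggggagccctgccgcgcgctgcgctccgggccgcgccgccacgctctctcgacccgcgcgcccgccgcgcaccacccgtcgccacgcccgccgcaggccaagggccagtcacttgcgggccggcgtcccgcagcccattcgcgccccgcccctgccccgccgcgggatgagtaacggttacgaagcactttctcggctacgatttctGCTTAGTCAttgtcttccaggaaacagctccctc
The core was also in a window of TXNRD1 and of GPX2, 3 of the 8 genes with an entry, and not in the window of NQO1. Some genes had more than 1 window, so the 3 of 8 genes are not on the scale of the 13.4% of promoters.

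TXNRD1, the cytosolic reductase of thioredoxin (NM_001261445; chromosome 12, 104732949 to 104733008), stayed within 0.27 of control. Its log2 ratios were 0.031, -0.25 and -0.26 on the miR-338-5p arrays and -0.11, -0.11 and -0.021 on the miR-421 arrays. The lines overlapped, with means of -0.16 ± 0.17 and -0.080 ± 0.052 (SD, n = 3; limma adjusted p 0.22 and 0.48). Its spot was dim, at 48.3 to 81.8 units above background in Cy3 and 25.8 to 65.4 units in Cy5, so the offset shrank its ratios too.

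**Figure D4:**
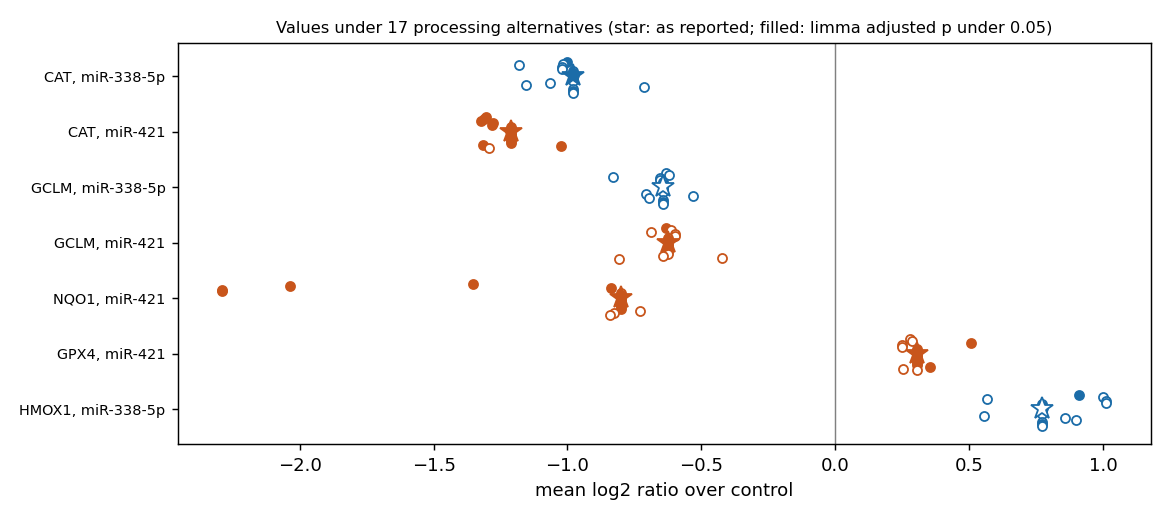
Mean log2 ratio over control of CAT, GCLM, NQO1, GPX4 and HMOX1 as reported (star) and under 17 processing alternatives (circles), filled where limma's adjusted p was under 0.05. CAT under miR-421 is filled in all alternatives but 1, while NQO1 under miR-421 moves from -0.80 as reported to -2.29.

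Beyond these enzymes, 70 genes of the same redox pathways were read in 7 lists, and 69 were tested. NFE2L2, which encodes NRF2 itself, was the gene that did not pass the filter. In the miR-338-5p line, 2 of the 69 genes were higher and 4 lower (2.9% and 5.8%, against 3.99% and 5.26% of 21697 genes). In the miR-421 line, 7 were higher and 10 lower (10.1% and 14.5%, against 10% and 12.6%). The lists as a whole thus moved about as often as all genes. For the difference between the lines 0 of 69 passed limma's adjusted p of 0.05. An unadjusted p under 0.05 in limma's test was found for 11 of the 69, and for 3101 of all 21697 genes. Without miR-421 replicate 2 the miR-421 counts dropped to 1 higher and 2 lower. Without miR-338-5p replicate 1 or 3 the miR-338-5p counts were 1 higher and 0 lower. Without miR-421 replicate 1 the miR-338-5p counts were 3 higher and 7 lower. The count over all tested probes changed too. Under miR-338-5p it went from 2476 of 27501 to 568 of 27498 without replicate 1 of that line. Such counts for the other fits are not given here, so these changes are not read as particular to the lists.

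The median log2 ratio of the 69 genes was -0.026 in the miR-338-5p line and 0.049 in the miR-421 line. Counts within each small list below are read against the shares of all genes given above. Of 10 peroxiredoxins and further glutathione peroxidases, the mitochondrial peroxiredoxin PRDX3 fell by 0.89 ± 0.23 with miR-338-5p and fell by 0.78 ± 0.31 with miR-421 (SD, n = 3; limma adjusted p 0.021 and 0.016). The cytosolic PRDX2 rose by 0.71 ± 0.019 under miR-421 (SD, n = 3; limma adjusted p 0.0083). The PRDX3 call under miR-338-5p was lost without miR-338-5p replicate 1, 2 or 3 (limma adjusted p 0.051, 0.084 and 0.091), and the miR-421 calls of PRDX3 and PRDX2 were lost without miR-421 replicate 2 (0.065 and 0.061). With median centring PRDX3 passed in neither line (0.056 and 0.059). The other members of that list did not pass in either line.

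The thioredoxin and glutaredoxin list had 12 genes. Of these, 2 were higher and 1 lower in the miR-338-5p line (16.7% and 8.33%, against 3.99% and 5.26% of 21697 genes). In the miR-421 line 2 were higher and 2 lower (16.7% each, against 10% and 12.6%). SESN2, a stress-induced sestrin, rose by 1.01 ± 0.14 and 1.23 ± 0.13 in the lines (SD, n = 3; limma adjusted p 0.0056 and 0.0023). GLRX, a cytosolic glutaredoxin, fell by 1.02 ± 0.28 under miR-338-5p (SD, n = 3; limma adjusted p 0.017). TXN, which encodes the thioredoxin that TXNRD1 reduces, fell by 0.93 ± 0.31 under miR-421 (SD, n = 3; limma adjusted p 0.0079). The other genes past the threshold were GLRX2 (0.73) under miR-338-5p, and GLRX (-0.80) and TXNRD2 (0.43) in the miR-421 line. SESN2 passed in both lines, and TXN in the miR-421 line, whichever of the 6 arrays was left out. The GLRX2 call was lost without any 1 of the miR-338-5p arrays or miR-421 replicate 2 (limma adjusted p 0.053 to 0.08), and that of GLRX under miR-338-5p without replicate 1 or 3 of that line (0.067 and 0.069). In the miR-421 line the calls of GLRX and TXNRD2 were lost without replicate 2 (0.068 and 0.1), and that of TXNRD2 also without the pool (0.062) and with median centring (0.24).

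Of 14 genes of glutathione synthesis, recycling and transfer, 0 passed under miR-338-5p. In the miR-421 line 3 were lower (21.4%, against 12.6% of 21697 genes). Under miR-338-5p 4 of the 14 had an unadjusted p under 0.05 in limma's test, as did 6012 of all 21697 genes. The largest falls under miR-421 were in the microsomal transferases MGST2 (-0.66 ± 0.14, limma adjusted p 0.019) and MGST1 (-0.64 ± 0.25, limma adjusted p 0.044; SD, n = 3). The third was GSTK1 (-0.45), whose call was lost whichever array was left out, and the MGST1 call was kept in 2 of 6 such fits, those without miR-338-5p replicate 1 or 3. The MGST2 call was lost without miR-421 replicate 1 or 2 (limma adjusted p 0.071 and 0.096). All 3 calls were lost with median centring (0.059 to 0.16) and in the image software's ratio (0.061 to 0.16). Of 8 genes that supply NADPH, 0 passed under miR-338-5p (4 with an unadjusted p under 0.05 in limma's test, against the same 6012 of 21697 genes). With miR-421 the mitochondrial isocitrate dehydrogenase IDH2 rose by 1.22 ± 0.27 and the cytosolic IDH1 fell by 0.39 ± 0.076 (SD, n = 3; limma adjusted p 0.0089 and 0.031). The IDH1 call was lost without any 1 of the miR-421 arrays (limma adjusted p 0.099 to 0.11), with median centring (0.11) and in the image software's ratio (0.2), and the IDH2 call without miR-421 replicate 2 (0.061).

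Of 7 tested NRF2 pathway regulators, CUL3, the scaffold of the ubiquitin ligase that KEAP1 links to NRF2, was the single gene that passed. It fell by 0.65 ± 0.22 with miR-338-5p and fell by 0.88 ± 0.32 with miR-421 (SD, n = 3; limma adjusted p 0.041 and 0.012), calls kept in 2 and 5 of the 6 fits with an array left out. The miR-338-5p call was lost without any 1 of that line's arrays or miR-421 replicate 2 (limma adjusted p 0.076 to 0.16), with median centring (0.087) and in the image software's ratio (0.12), and the miR-421 call without miR-421 replicate 2 (0.075). Of 11 further NRF2 target and heme or iron genes, UGDH, which makes UDP-glucuronate, fell by 1.35 ± 0.044 with miR-338-5p and fell by 2.24 ± 0.43 with miR-421 (SD, n = 3; limma adjusted p 0.011 and 0.0025). NQO2, a quinone reductase related to NQO1, rose by 0.35 ± 0.13 under miR-421 (SD, n = 3; limma adjusted p 0.02). The UGDH call under miR-338-5p was lost without replicate 1 or 3 of that line (limma adjusted p 0.052 and 0.053). The NQO2 call was lost without miR-421 replicate 1 or 2 (0.069 and 0.11), with median centring (0.16) and in the image software's ratio (0.094).

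Copper handling was read because SOD1 and SOD3 need copper. Of 7 genes 0 passed under miR-338-5p. Under miR-421 2 were higher and 1 lower (28.6% and 14.3%, against 10% and 12.6% of 21697 genes). Under miR-338-5p 1 of the 7 had an unadjusted p under 0.05 in limma's test, as did 6012 of all 21697 genes. The copper importer SLC31A1 rose by 0.69 ± 0.23 and CCS, the copper chaperone of SOD1, rose by 0.42 ± 0.16 (SD, n = 3; limma adjusted p 0.027 and 0.014). The copper pump ATP7A, which loads secreted enzymes, was the 1 lower gene (-0.40 ± 0.24, limma adjusted p 0.038), and its call was kept in 1 of the 6 fits with an array left out, the one without the miR-421 pool. The SLC31A1 call was lost without any 1 of the miR-421 arrays (limma adjusted p 0.069 to 0.099), and the CCS call without miR-421 replicate 2 (0.069) and with median centring (0.21). ATP7A was lost with median centring (0.078) and in the image software's ratio (0.055).

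Over the 7 lists, 8 of the 17 calls under miR-421 and 4 of the 6 under miR-338-5p were kept with median centring. In the image software's ratio 11 of 17 and 5 of 6 were kept. Each of these genes kept its sign under both settings in the line where it passed.

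**Figure D5:**
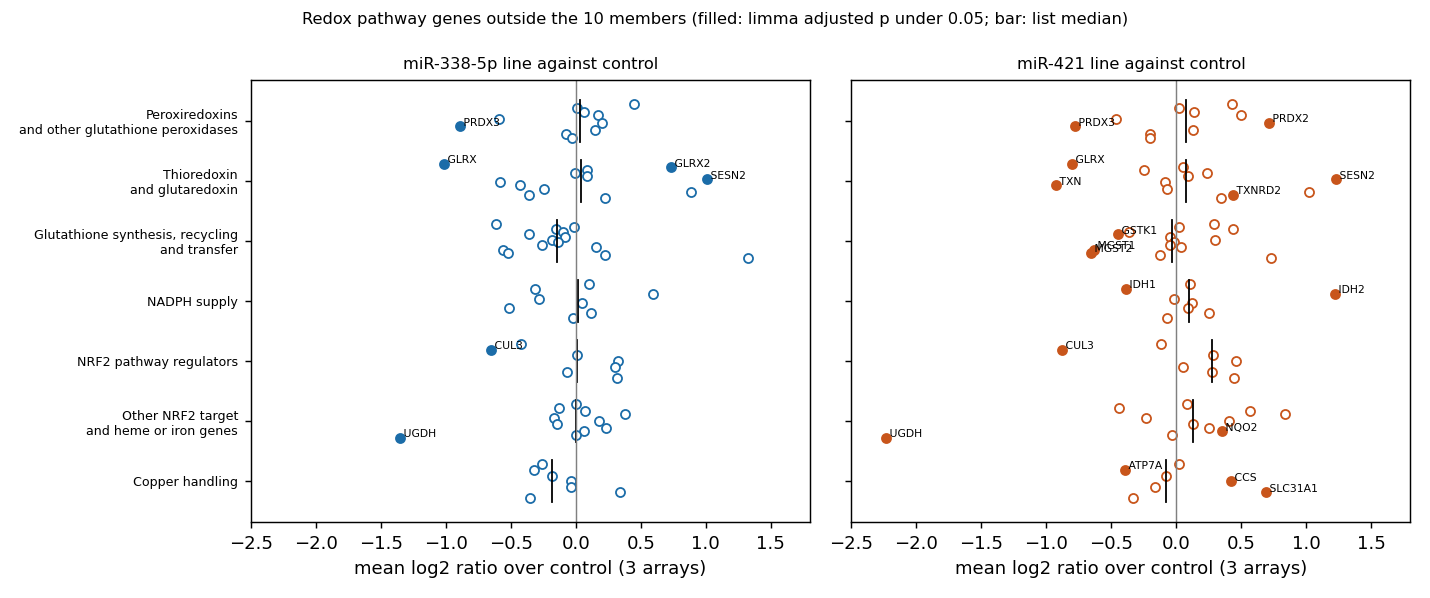
Mean log2 ratio over control (3 arrays) of the 69 tested pathway genes in 7 lists, for the miR-338-5p line (left) and the miR-421 line (right), filled and named where limma's adjusted p was under 0.05, with a bar at each list's median. Filled points number 6 on the left and 17 on the right, with UGDH the lowest on either side (-1.35 and -2.24).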

How the data were processed

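The authors scanned the arrays into Feature Extraction 11.5.1.1 (per the file headers). Deposited intensity values were the raw spot means and local background medians of both dyes. A log10 ratio (Cy5 over Cy3), already background-subtracted and dye-normalized by the software per the file headers, was deposited beside them. The authors' deposited whole-series table holds log2 ratios per gene name, with normalization not given in the sources used here. Both ratios served as alternatives.

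Intensities were corrected with normexp (offset 50) and loess within each array, control spots at weight 0. Spots marked as outliers were dropped and spots of 1 probe averaged. Of 58201 probes, 27503 were tested, which reached the mark for well above background in at least 1 dye on 3 or more of 6 arrays. Channel levels were scaled with Aquantile. All 6 arrays entered 1 limma 3.58.1 fit (R 4.3.3) with a mean per group and eBayes (prior degrees of freedom 2.05). Tests were two-sided with Benjamini-Hochberg adjustment over all tested probes, threshold 0.05. Testing ratios against 0 takes no account of how control cultures vary, and without dye swaps a probe's dye bias enters both comparisons with control. All arrays were on 1 slide. The fit was tested on simulated data.

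The genes, lists and alternatives were chosen with earlier results of these data known. All 10 genes were named by rule, by their 1 probe each. In the pathway lists, each gene was read by its brightest tested probe, and the 2 genes past the threshold with the largest ratio were named per list and comparison, plus those in counts of 5 or fewer. Alternatives covered background correction, normalization, ratio source, filter, outlier spots, variance model, probes per gene, arrays in the fit, each array left out and, for the difference between lines, the replicate number as a block. For the pathway lists, leaving out each array and the other scalings were added after seeing the data. Probe coordinates are hg19, per the file headers. Sequences and promoters are RefSeq's (GRCh38.p14). Exon and UTR annotation was not used here.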

Additional observations from a re-analysis of the deposited data

Results flagged for a closer look

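Of the 10 control (Cy3) levels examined over 6 arrays, 2 had a sample far from the others by Dixon's criterion, which chance meets in about 1 group in 20. The Cy3 level of GPX2 on miR-421 replicate 2 was 5.94, the array on which that dim spot was not well above background. The Cy3 level of HMOX1 on miR-421 replicate 1 was 7.83, against 7.64 to 7.71 on the other arrays. The GPX4 log2 ratio was below 0 on all 3 miR-338-5p arrays and above 0 on each of the 3 miR-421 arrays. The lines differed by -0.39, and limma's adjusted p for that difference was 0.17, above the threshold.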

How the results depend on the processing

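Depth is not defined for arrays, and dim spots limit NQO1, TXNRD1 and GPX2, whose ratios shrink with the offset of 50. Over the 17 alternatives the median log2 ratio of all tested probes moved by -0.074 to 0.069 from that reported. SOD3 kept its sign under miR-421, at 2.59 with plain background subtraction, 2.68 with the software's own ratio and 2.68 in the authors' table, and 2.26 to 2.48 with 1 array left out. Under miR-338-5p it was -0.11 with median centring and 0.0061 to 0.13 with 1 array left out. The gap was -2.50 with the software's own ratio and -2.50 in the authors' table, and -2.40 to -2.18 with 1 array left out. Of the other 9 genes, 1 passed under miR-338-5p as reported. That count was 2 with no background correction or with a filter on all 6 arrays, 3 with trended, robust variances, and 0 with plain subtraction, median centring, the software's own ratio, the authors' table, no filter or the group's own arrays. It was 0 to 3 with 1 array left out. The count over all tested probes moved as well. Under miR-338-5p 2476 of 27501 probes passed as reported, 2557 with no background correction and 3450 with trended, robust variances. With plain subtraction 1563 probes passed, with median centring 1284 and with the group's own arrays 214. Under miR-421, 4 passed as reported, and 2 with plain subtraction, the software's own ratio, the authors' table, no filter or the group's own arrays, and 0 to 4 with 1 array left out (1 without replicate 1, 0 without replicate 2, 2 without the pool). Over all tested probes 5950 of 27491 passed under miR-421 as reported and 6908 with no background correction. With plain subtraction 5623 probes passed, and with the group's own arrays 3983. For the difference between the lines 0 of the 9 genes passed in all 17 alternatives.

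Means near 0 changed sign, none past the threshold. SOD2 under miR-338-5p was 0.016 with no background correction, 0.041 with plain subtraction, 0.055 with the software's own ratio and in the authors' table (0.055), and -0.10 to 0.094 with 1 array left out. GPX2 under miR-338-5p was -0.0098, with median centring -0.039, with the software's own ratio -0.033, in the authors' table -0.032, and -0.0097 to 0.022 with 1 array left out. SOD2 under miR-421 was 0.034 with plain subtraction, 0.059 with the software's own ratio, 0.062 in the authors' table and -0.24 to 0.14 with 1 array left out. SOD1 under miR-421 was 0.22 with median centring and -0.14 to 0.034 with 1 array left out. The GCLM difference was 0.0028 with no background correction and -0.22 to 0.16 with 1 array left out. The SOD2 difference was -0.086 with median centring, -0.0034 with the software's own ratio, -0.0069 in the authors' table and -0.16 to 0.22 with 1 array left out. The cause of these changes was not tested.

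Replicate numbers 1 and 2 occur in both lines, and the labels do not say whether same-numbered samples were handled together. Deviations of same-numbered samples correlated at -0.14 and -0.211 across probes, and those of differently numbered samples at -0.153 to 0.197. With 3 arrays per line, these values cannot show whether the numbers mark a shared step. With the replicate number as a block, 0 of the 9 genes and 0 of all probes passed for the difference, against 0 and 13 without it. The SOD2 difference was then -0.18.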
